A study of Mus musculus with 12 samples.

Results

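The cytosolic ribosomal protein genes encode the proteins of the small (Rps) and large (Rpl, Rplp) subunits of the ribosome. They were chosen by symbol: every listed symbol that starts with Rps, Rpl or Rplp and a number, without the Rps6k kinases, Rps19bp1, Rps27rt and symbols that mark pseudogenes. The rule found 75 symbols in each table, of which Rps3a and Rps3a1 carried identical values and were counted once as Rps3a1. This left 74 genes, 30 of the small and 44 of the large subunit, of 10405 symbols listed for Treg and 9886 listed for Tcon. All 74 were listed in both tables, and the filter of at least 1 CPM in at least 2 libraries removed none. Filters used by the submitters before listing are not given, so whether they removed other such genes is unknown. They comprise 71 of 76 standard ribosomal protein genes that carry such a symbol and 3 paralogs, Rpl22l1, Rpl7l1 and Rps27l. Rpl29, Rpl34, Rpl36a, Rpl37 and Rps27, and the paralogs Rpl36al, Rpl3l, Rpl10l, Rpl39l and Rps4l, were not listed and were not analysed here.

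The study treated mice with a stapled peptide, SAH-FOXP3(229-259)C, made to inhibit FOXP3, the transcription factor that defines regulatory T cells. All mice were B6.Cg-Foxp3tm2Tch/J, a strain in which GFP marks cells that express Foxp3. Peptide (25 mg/kg) or vehicle, named DMSO in the sample titles, was injected into the peritoneum daily for 2 days, and RNA was taken from 2 CD4+ T cell populations of lymph node and of spleen. Treg are the CD4+CD25+FOXP3+ regulatory cells and Tcon the CD4+ conventional cells. Each cell type had 4 SAH libraries (lymph node replicates 2 and 3, spleen replicates 5 and 6) and 2 vehicle libraries (lymph node replicate 1, spleen replicate 4). Each organ thus had 1 vehicle library per cell type. The labels do not say that libraries came from separate mice or how many mice each held, so p-values measure the spread between these libraries.

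Ribosomal protein mRNAs are short, abundant and made in matched amounts, since each ribosome takes 1 copy of nearly every protein. In mammals their transcripts begin with a C and a run of pyrimidines at the cap, the terminal oligopyrimidine or TOP motif, through which the kinase complex mTORC1 and the RNA-binding protein LARP1 control their translation and stability. T cells raise ribosome production when they are activated and grow.

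The start of the transcript is therefore the sequence feature these genes share. RefSeq windows around the start (GRCm38.p6) were available for 55 of the 74 genes. The search was for a C followed by at least 4 further C or T on the gene's strand, with that first C within 10 bases of the annotated start. Such a run was found in 33 of the 55 genes (60.0%), against 34.4% of 27025 mouse genes searched the same way. Here and for the letters below, a gene counted if any window of its annotated starts had a match. The shares thus depend on how many starts a gene has, which was not matched between members and all genes. The windows below are those of Rpl38, which passed the SAH test in Tcon, of Rps9, Rps26 and Rpl28, which passed the organ test in Treg, and of Rps6, whose protein is the target of the S6 kinases. Each runs 5′ to 3′ over 30 bases of the gene's strand, and capitals mark the run.
Rpl38: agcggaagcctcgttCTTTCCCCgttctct
Rps6: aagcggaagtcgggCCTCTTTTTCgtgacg
Rps9: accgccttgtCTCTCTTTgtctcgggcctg
Rps26: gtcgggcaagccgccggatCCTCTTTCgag
Rpl28: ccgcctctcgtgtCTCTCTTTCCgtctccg
The windows lie at chr11:114668565-114668594 (plus strand) for Rpl38, chr4:86857353-86857382 (minus strand) for Rps6, chr7:3704026-3704055 (plus strand) for Rps9, chr10:128626492-128626521 (minus strand) for Rps26 and chr7:4792950-4792979 (plus strand) for Rpl28. Among the longer promoter windows of the same table, read on both strands, CCGGAAG, the core letters of an ETS-family site, stood in 22 of the 55 genes, Rpl38 among them, and in 9.93% of all genes. GGGCGG, the letters of a GC box, stood in 34 of the 55 (61.8%) against 38.2% of all genes. These matches describe letters and do not show binding or a transcript's true first base.

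Values are read counts scaled per library, which the file headers name CPM, with library totals between 971928 and 1021433. In every library all values under 100 CPM lay within 0.1 of a whole multiple of 1 step, and these steps summed to between 36442420 and 48888678 per library. Those sums are the depth only if a step is 1 read, which was not settled, so the depth is unknown. Over 6 libraries of a cell type (mean ± SD), Foxp3 was at 690.4 ± 27.2 CPM in Treg, against 22.3 ± 1.85 CPM in Tcon, and Cd4 was at 719 ± 20.6 CPM in Treg, against 992 ± 28.0 CPM in Tcon. Markers of other cells were listed only in part: red cell markers (2 of 8 in Treg and 1 of 8 in Tcon), myeloid markers (5 of 10 and 3 of 10), B cell markers (4 of 10 and 2 of 10), plasma cell markers (2 of 6 in both) and CD8 and natural killer markers (4 of 8 and 5 of 8). The summed level of each of these lists was higher in every spleen library than in every lymph node library of the same cell type, except that the CD8 and natural killer markers were lower in spleen Treg. The 2 listed plasma cell markers were Jchain and Xbp1. Xbp1 ranged from 81.3 to 105 CPM in Treg and from 97.8 to 126 CPM in Tcon, so it was most of their sum in every lymph node library. Whether Xbp1 came from plasma cells or from the sorted T cells was not tested.

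The ribosomal protein genes made up between 3.78% and 4.35% of the listed CPM in the 6 Treg libraries and between 5.73% and 6.91% in the 6 Tcon libraries. The mean level of a gene ranged from 7.40 to 1695 CPM in Treg, with a median of 488 CPM, and from 6.26 to 2641 CPM in Tcon, with a median of 718 CPM. The mean was lower in Treg than in Tcon for 72 of the 74 genes, and the median ratio of Treg to Tcon was 0.665. Rps24 had the lowest ratio, 0.502, with a mean of 914 ± 43.0 CPM over the Treg libraries and of 1819 ± 136 CPM over the Tcon libraries (SD, n = 6 for both). The exceptions were Rps27l, a paralog of Rps27 known as a p53 target, with 14.4 ± 1.07 CPM in Treg, against 8.77 ± 0.908 CPM in Tcon, and Rpl39, whose protein lines the exit tunnel, with 7.40 ± 0.622 CPM in Treg, against 6.26 ± 0.468 CPM in Tcon. The tables were normalized separately, so these levels were set side by side with no test. The share of all genes that were lower in Treg is not given here, so the count of 72 has no background. In these bulk libraries fewer cells of a type and less RNA per cell cannot be told apart.

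**Figure D1:**
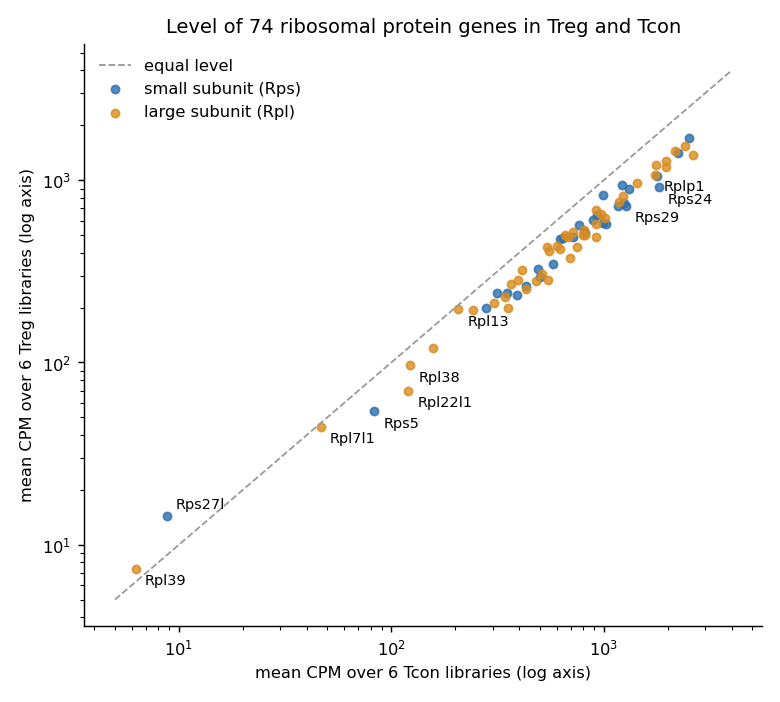
Mean CPM of each of the 74 ribosomal protein genes over 6 Treg libraries (vertical, log axis) and 6 Tcon libraries (horizontal, log axis), with the dashed line at equal level. Small subunit genes are blue and large subunit genes are orange, and 72 of the 74 lie below the line, with Rps27l and Rpl39 above it.

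Per kilobase of spliced transcript, the order of the genes was nearly shared by the cell types at both ends. Rplp1, a stalk protein that recruits elongation factors, was highest at 2142 ± 164 CPM per kilobase in Treg and 3482 ± 328 in Tcon (mean ± SD over 6 libraries). Rps29 was next at 1851 ± 186 CPM per kilobase in Treg and 3267 ± 469 in Tcon, and the third was Rps14 at 1581 ± 89.9 in Treg and Rpl8 at 2304 ± 98.3 in Tcon. The spreads (mean ± SD) of Rplp1 and Rps29 overlapped in both cell types. At the low end stood Rpl39 (12.1 ± 1.02 CPM per kilobase in Treg and 10.2 ± 0.765 in Tcon), Rps27l (28.8 ± 2.15 and 17.6 ± 1.82) and Rpl7l1, a paralog of Rpl7 that takes part in large subunit assembly (33.9 ± 3.69 and 35.6 ± 1.91). The other 2 stalk genes were lower than Rplp1: Rplp0 averaged 1131 ± 87.6 CPM per kilobase in Treg and 1772 ± 136 in Tcon, and Rplp2 averaged 602 ± 27.2 in Treg and 1020.0 ± 91.1 in Tcon. Rpl22, whose loss in mice blocks early αβ T cell development, stood at 480.1 ± 23.5 CPM per kilobase in Treg and 723 ± 33.7 in Tcon, and its paralog Rpl22l1 at 127 ± 6.07 and 218 ± 13.5. Length was taken from 1 annotated transcript per gene, so a gene whose annotated transcript is long for its protein, such as Rps20 at 3706 bases, is understated on this scale.

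Ribosomal protein genes have many processed pseudogenes, and how the authors assigned reads that fit several places is not given in the sources used here. In GENCODE vM21, 59 of the 74 transcripts shared at least 200 bases at 97% identity or more with at least 1 pseudogene, with a median of 3 and a highest number of 32, for Rpl21. Levels of single genes are therefore uncertain. Whether such reads were assigned alike in every library was not tested. Rpl38 had 3 such copies, Rps28 had 7, Rps2 had 16, Rpl13 had 4 and Rps9 had 1, while Rpl39, Rps27l, Rpl7l1, Rpl22 and Rps29 had none.

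Within each cell type the genes varied as a block from library to library. In Treg the median correlation of a gene with the median of the other members over 6 libraries was 0.85, and 30 of 74 genes were above 0.9, whereas in Tcon the median was 0.93 and 47 genes were above 0.9. These correlations are descriptions over 6 libraries that share their depth and scaling. In Treg the lowest library was spleen SAH replicate 5, where 55 of 74 genes had their lowest value. The summed level in Treg was 38325 and 41898 CPM in spleen SAH, against 39687 CPM in spleen vehicle, and 42903 and 42018 CPM in lymph node SAH, against 42226 CPM in lymph node vehicle. In Tcon the block was lowest in the lymph node vehicle library, where 69 of 74 genes had their lowest value, and highest in lymph node SAH replicate 2, where 59 had their highest. The summed level in Tcon was 65994 and 65805 CPM in spleen SAH, against 62032 CPM in spleen vehicle, and 69237 and 63161 CPM in lymph node SAH, against 55695 CPM in lymph node vehicle. Both subunits took part. In the Tcon lymph node vehicle library the small subunit genes stood at a median of 0.21 and the large subunit genes at 0.18 below their own means on the log2 scale.

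**Figure D2:**
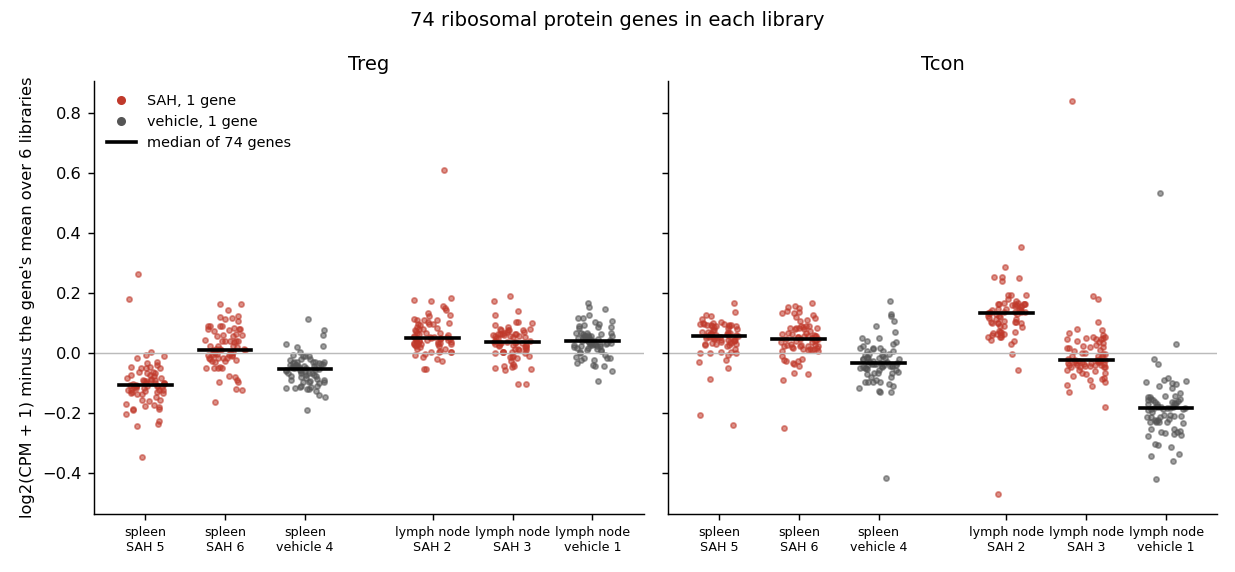
Each point is 1 of 74 ribosomal protein genes in 1 library, as log2(CPM + 1) minus the gene's mean over the 6 libraries of its cell type, with SAH libraries in red, vehicle libraries in grey and a bar at the median of the 74 genes. In Tcon the bars of both organs are higher in the SAH libraries than in the vehicle library, with the lymph node vehicle library at the bottom, and in Treg the lowest bar is spleen SAH replicate 5.

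The first comparison asked what the peptide did in Tcon, with organ as a term of a linear model on log2(CPM + 1). Of the ribosomal protein genes 73 of 74 had a positive log2 change, against 48.9% of all genes tested, and the median change was 0.17, against -0.0028 for all genes. Rpl38 was the only member that passed the limma test with Benjamini-Hochberg adjustment over all genes, so 1 of 74 was called, near the 1.04% of all genes (0.88% called higher). At an unadjusted p under 0.05, 48 of 74 members passed, against 14.1% of all genes. The members varied together between libraries, so counts of members, here and below, are not counts of independent genes. On the log2 scale the median deviation of the members from their own means was 0.13 in Tcon lymph node SAH replicate 2. It was -0.024 in lymph node SAH replicate 3 and -0.034 in the spleen vehicle library. Between SAH libraries of the same organ the pooled SD of this median was 0.078 in Tcon and 0.059 in Treg. The median change was 0.18 over the 30 small subunit genes and 0.16 over the 44 large subunit genes.

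Library by library, both SAH libraries exceeded the vehicle library of their organ in both organs for 57 of 74 genes, against 16.6% of all genes. In spleen alone this held for 58 genes (36.5% of all genes) and in lymph node alone for 72 (33.7% of all genes). The size of the shift rested partly on 1 library: without the lymph node vehicle library the median change of the 74 genes was 0.092 and 62 were positive, whereas without the spleen vehicle library the median was 0.24. With each library rescaled to the same total, the median was 0.12, beside -0.046 for all genes. Some markers of other cells also differed with SAH in spleen Tcon: the CD8 and natural killer markers summed to 66.7 and 68.8 CPM in spleen SAH, against 91.4 CPM in spleen vehicle, and the plasma cell markers to 147 and 143 CPM in spleen SAH, against 221 CPM in spleen vehicle. In lymph node Tcon the first list summed to 40.5 and 36.0 CPM with SAH, against 38.7 CPM with vehicle, and the second to 110.3 and 127 CPM with SAH, against 98.1 CPM with vehicle. The lymph node sums of the second list were mostly Xbp1. The part of these lists in the SAH change was not tested.

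Rpl38 encodes a small protein of the large subunit that in mice is needed for translation of a set of Hox mRNAs. The gene lies at chr11:114668524-114672331 on the plus strand (mm10) and has 5 exons. In Tcon it stood at 137 and 128 CPM in spleen SAH, against 112 CPM in spleen vehicle, and at 131 and 129 CPM in lymph node SAH, against 98.3 CPM in lymph node vehicle. All 4 SAH libraries were above both vehicle libraries. The share of all genes for which this held in Tcon is not given, here or for the genes below. The log2 change was 0.32 (SE 0.060, 95% interval 0.18 to 0.45); the adjusted p was 0.0462 by limma. This call is close to the threshold: the adjusted p was 0.307 without lymph node vehicle replicate 1, 0.167 without lymph node SAH replicate 3, 0.127 without spleen vehicle replicate 4, 0.112 without spleen SAH replicate 5, 0.0549 without spleen SAH replicate 6, and 0.0673 and 0.0703 under the 2 rescalings.

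Other genes with large changes did not pass. Rps28, a small subunit protein, stood at 371 and 378 CPM in spleen SAH, against 324 CPM in spleen vehicle, and at 413 and 329.5 CPM in lymph node SAH, against 279 CPM in lymph node vehicle. Its change was 0.31 on the log2 scale with an adjusted p of 0.131 by limma, and without lymph node SAH replicate 2 it was called together with Rpl38. Every SAH library was above both vehicle libraries for Rps28. Rps15, Rpl18 and Rps29 had changes of 0.27, 0.26 and 0.26. The authors' deposited table, which rests on the same libraries, calls no member in Treg. In Tcon Rpl38 and Rps28 are among the members it calls higher, and it calls no member lower. The share of all genes that the authors call is not given here.

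At the other end, Rpl13 had a change of -0.089, Rpl7l1 of 0.010 and Rpl39 of 0.018, all with 95% intervals that include 0. Among genes of known roles, the stalk genes Rplp1, Rplp0 and Rplp2 had changes of 0.20, 0.16 and 0.067, none past the threshold. Rpl5 and Rpl11, which form a particle with the 5S RNA and can bind the p53 regulator MDM2, had changes of 0.19 and 0.20. Rps6 stood at 1856 and 1809.7 CPM in spleen SAH, against 1709 CPM in spleen vehicle, and at 1994 and 1791 CPM in lymph node SAH, against 1531 CPM in lymph node vehicle. Its change of 0.20 had an adjusted p of 0.214 by limma, and all 4 SAH libraries were above both vehicle libraries.

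The paralogs Rpl22l1 and Rpl7l1 had smaller changes than their standard partners, a difference that was not tested. The change was 0.11 for Rpl22 and 0.063 for Rpl22l1, 0.11 for Rpl7 and 0.010 for Rpl7l1, and 0.10 for Rps27l, and none of these passed the limma test. Rpl3, Rpl10 and Rps4x, whose paralogs were not analysed here, had changes of 0.17, 0.17 and 0.091.

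**Figure D3:**
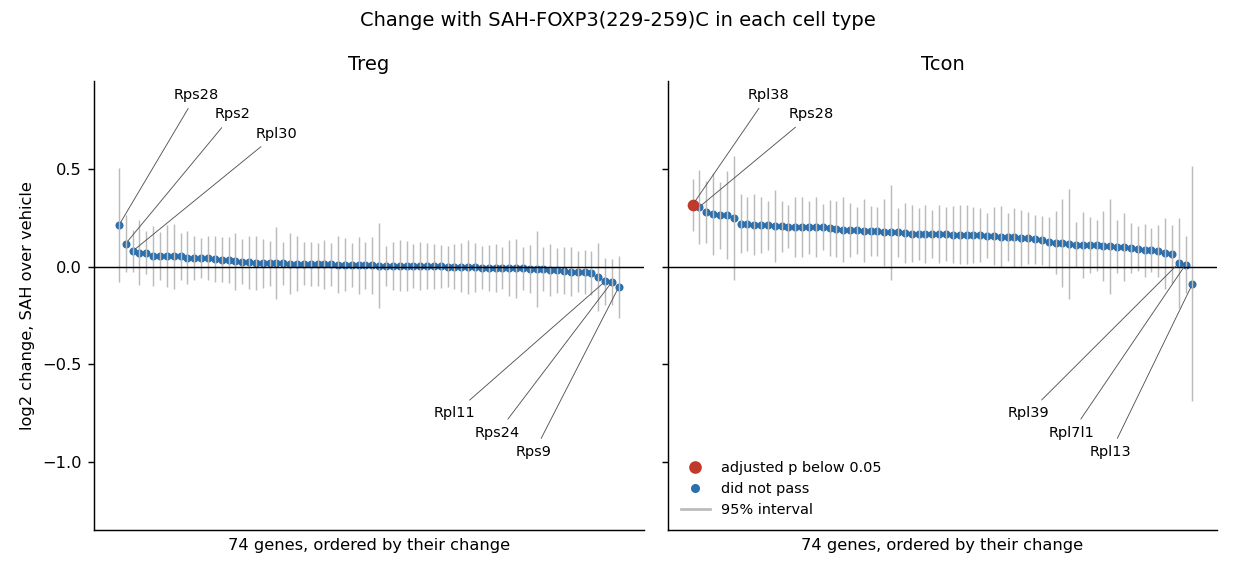
Log2 change of each of the 74 ribosomal protein genes in SAH over vehicle libraries (points, with 95% intervals from limma) in Treg (left) and Tcon (right), each ordered by size. In Tcon 73 points are above 0 and Rpl38, in red, passed the adjusted threshold of 0.05, and in Treg 50 points are above 0 and none passed.

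In Treg, by contrast, the changes of the members centred near 0. Of 74 genes 0 were called, against 0.202% of all genes, and 0 had an unadjusted p under 0.05 by limma, against 7.04% of all genes. The median change was 0.0061, beside 0.0035 for all genes, and 50 of 74 changes were positive, against 51.8% of all genes. Both SAH libraries exceeded the vehicle library in both organs for 6 genes, against 13.4% of all genes, and were below it in both for 1, Rps24, against 11.7% of all genes. In spleen alone 14 genes had both SAH libraries above vehicle, against 30.4% of all genes, and in lymph node alone 19 did, against 36.8%. Markers of other cells differed with SAH in spleen Treg too. The myeloid markers summed to 60.3 and 77.4 CPM with SAH, against 41.0 CPM with vehicle. The plasma cell markers summed to 173 and 216 CPM with SAH, against 213 CPM with vehicle. Their part was not tested. Rpl38 stood in Treg at 95.8 and 99.0 CPM in spleen SAH, against 94.4 CPM in spleen vehicle, and at 100.1 and 89.7 CPM in lymph node SAH, against 99.3 CPM in lymph node vehicle. Both spleen SAH libraries were above the spleen vehicle library, and the lymph node SAH libraries lay on either side of theirs. The change was -0.012 with a 95% interval of -0.14 to 0.11. This interval lies below the Tcon estimate of Rpl38, which has its own interval and was the largest of the members there. The interaction test of Rpl38, given below, did not pass unless library numbers were taken as pairs.

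The largest positive changes in Treg were 0.21 for Rps28, 0.12 for Rps2 and 0.079 for Rpl30. Rps28 stood at 202 and 237 CPM in spleen SAH, against 207 CPM in spleen vehicle, and at 361 and 219.7 CPM in lymph node SAH, against 222 CPM in lymph node vehicle, so its change rested on lymph node SAH replicate 2 and was 0.041 without it. Rps2 stood at 935 and 797 CPM in spleen SAH, against 759.7 CPM in spleen vehicle, and at 847 and 820.0 CPM in lymph node SAH, against 804 CPM in lymph node vehicle. Its SAH libraries were above the vehicle library in both organs, with an adjusted p of 0.845 by limma. The lowest changes were -0.10 for Rps9, -0.079 for Rps24 and -0.076 for Rpl11, and none passed.

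Whether the SAH change differed between the cell types was tested as an interaction over all 12 libraries. The difference, Treg minus Tcon, was positive for 2 of 74 genes, against 51.5% of all genes, and its median was -0.16, beside 0.0040 for all genes. The median was -0.068 without the Tcon lymph node vehicle library and -0.24 without the Tcon spleen vehicle library. By limma 0 of 74 members and 0.0% of 9784 genes were called, and 17 members had an unadjusted p under 0.05, against 4.63% of all genes. The lowest differences were -0.33 for Rpl38, -0.28 for Rpl11 and -0.27 for Rpl18. The highest were 0.14 for Rpl13, 0.0070 for Rpl22l1 and -0.0053 for Rps2. Rpl38 had an adjusted p of 0.642 (95% interval -0.51 to -0.15). With the library number, which was taken to pair Treg and Tcon libraries although the labels do not state it, as a replicate block, 76 genes and 1 member were called, and that member was Rpl38 with an adjusted p of 0.0331 by limma.

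The next comparison set spleen against lymph node, with treatment as a term. In Treg, 9 of 74 ribosomal protein genes were called lower in spleen and 0 higher, where 6.01% of all genes were called lower, 8.71% higher and 14.7% in either direction. At an unadjusted p under 0.05 by limma 22 of 74 passed, against 28.3% of all genes. The difference was positive for 4 of 74 genes, against 49.0% of all genes, with a median of -0.084 beside -0.0028 for all genes. The median was -0.048 without spleen SAH replicate 5. The share of members called in either direction, 12.2%, was below that of all genes. All 3 spleen libraries were below all 3 lymph node libraries for 30 of 74 genes, against 15.1% of all genes, and the opposite held for 0. Among the 9 were Rps9, Rps12, Rps20 and Rps26 of the small subunit and Rpl7l1, Rpl10a, Rpl28 and Rpl41 of the large subunit.

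Rps26, a protein of the small subunit at the mRNA exit that is mutated in some patients with Diamond-Blackfan anaemia, had the smallest adjusted p. It stood at 214, 228 and 222 CPM in spleen, against 260.2, 259 and 268 CPM in lymph node. The groups did not overlap, and the difference was -0.24 on the log2 scale (SE 0.046, adjusted p 0.00248 by limma). Rps9 had the largest difference, at 379, 444 and 489 CPM in spleen, against 547, 531 and 522 CPM in lymph node. Every spleen library was below every lymph node library, and the difference was -0.29 with an adjusted p of 0.0105 by limma. Rpl7l1 stood at 41.3, 39.4 and 39.8 CPM in spleen, against 49.9, 46.1 and 49.7 CPM in lymph node. Its difference was -0.27, with an adjusted p of 0.00628 by limma and no overlap.

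Rps12, a small subunit protein, stood at 275, 279.8 and 272 CPM in spleen, against 329, 312 and 307 CPM in lymph node, a difference of -0.19 with no overlap. Rps20, Rpl28, Rpl10a and Rpl41 differed by -0.19, -0.18, -0.18 and -0.16, with adjusted p values by limma of 0.0241, 0.0143, 0.0179 and 0.0406. Rps28 had a difference of -0.27 and did not pass. This value rested on its high lymph node SAH replicate 2: it was -0.046 without that library, and -0.45 without lymph node SAH replicate 3, where it was called (adjusted p 0.0168 by limma). Rpl13, Rps2 and Rpl19 had the highest values, 0.080, 0.0064 and 0.0024, those of Rps2 and Rpl19 being negative under both rescalings.

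Of these 9 calls, that of Rps26 held under every alternative run. The number called lower was 2 without lymph node vehicle replicate 1 or without spleen vehicle replicate 4, 1 without lymph node SAH replicate 2, 24 (with 1 gene, Rpl13, higher) without spleen SAH replicate 6, and 15 under either rescaling. Markers of other cells moved with organ in Treg. The listed red cell markers (Alas2 and Slc4a1) summed to 10.7 to 139 CPM in spleen and 0.625 to 0.849 CPM in lymph node, and the 5 listed myeloid markers to 41.0 to 77.4 CPM in spleen and 6.23 to 8.21 CPM in lymph node. The plasma cell markers summed to 173 to 216 CPM in spleen and 81.5 to 98.2 CPM in lymph node, the B cell markers to 30.5 to 32.7 CPM in spleen and 20.3 to 21.8 CPM in lymph node, and the CD8 and natural killer markers to 28.1 to 29.9 CPM in spleen and 37.0 to 38.6 CPM in lymph node. None of these ranges overlapped, and the lymph node sums of the plasma cell markers were mostly Xbp1. The part of these lists in the organ difference was not tested. The red cell markers were highest in spleen SAH replicate 6, whose ribosomal protein genes were the highest of the 3 spleen libraries. This was not so in Tcon, where the listed red cell marker was also highest in spleen SAH replicate 6. The members summed to 65805 CPM in that Tcon library, against 65994 CPM in spleen SAH replicate 5 and 62032 CPM in spleen vehicle.

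**Figure D4:**
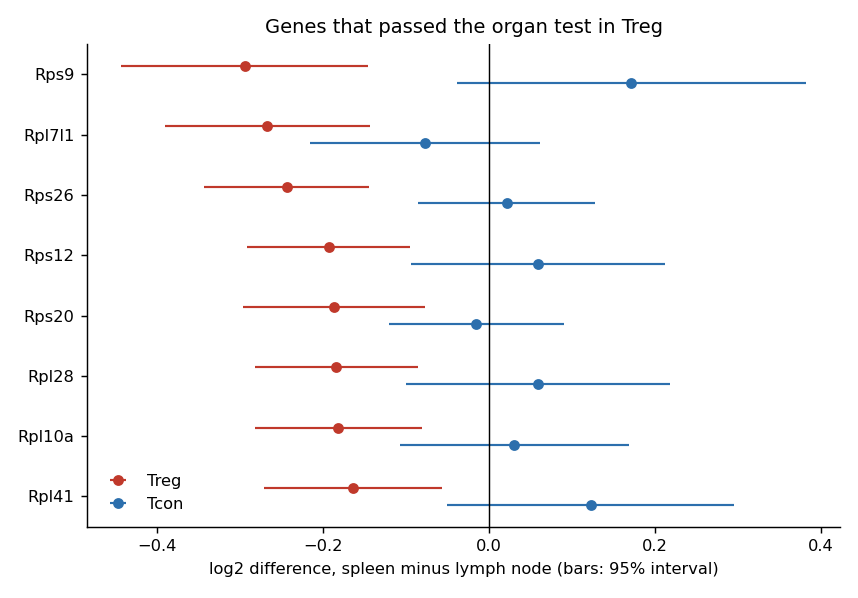
Log2 difference, spleen minus lymph node, of 8 ribosomal protein genes that passed the organ test in Treg, with 95% intervals from limma, for Treg (red, upper point of each row) and Tcon (blue, lower point). All 8 Treg values are below 0, and all 8 Tcon intervals include 0.

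In Tcon no member passed the organ test: of 74 members 0 were called, against 4.73% of all genes (3.28% higher and 1.46% lower), 3 had an unadjusted p under 0.05 by limma, against 17.4% of all genes, and 62 were positive, against 49.3% of all genes, with a median of 0.051. The median was -0.0028 with the spleen or the lymph node vehicle library left out, 0.025 without lymph node SAH replicate 3 and 0.11 without lymph node SAH replicate 2. In Tcon too the markers of other cells moved with organ, with the CD8 and natural killer markers at 66.7 to 91.4 CPM in spleen and 36.0 to 40.5 CPM in lymph node, and their part was not tested. The highest differences were 0.17 for Rps9, 0.16 for Rpl37a and 0.16 for Rps29, and the lowest -0.60 for Rpl13, -0.13 for Rps2 and -0.077 for Rpl7l1. Without lymph node SAH replicate 2, the library in which the block was highest, 9 were called higher and 1 lower. The difference of the organ effect between Treg and Tcon was not tested.

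A few genes left the block. Rpl13, of the large subunit, stood in Tcon at 164 and 163 CPM in spleen SAH, against 145 CPM in spleen vehicle, and at 139.6 and 347 CPM in lymph node SAH, against 281 CPM in lymph node vehicle. It was high in the lymph node vehicle library, where nearly all other members were lowest, and lowest in lymph node SAH replicate 2, where most were highest. Its correlation with the other members was -0.78 over the 6 Treg libraries and -0.65 over the 6 Tcon libraries. In Treg it stood at 234 and 182 CPM in spleen SAH, against 189 CPM in spleen vehicle, and at 188 and 189 CPM in lymph node SAH, against 192 CPM in lymph node vehicle, so the high library there was spleen SAH replicate 5, the one in which 55 members were lowest. Rps2 had correlations of -0.42 in Treg and 0.14 in Tcon, and was highest in spleen SAH replicate 5 of Treg and in lymph node SAH replicate 3 of Tcon. The SD of a gene around the block showed rank correlations of -0.16 in Treg and -0.27 in Tcon with the number of near-identical pseudogenes over the 74 genes, a description only.

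**Figure D5:**
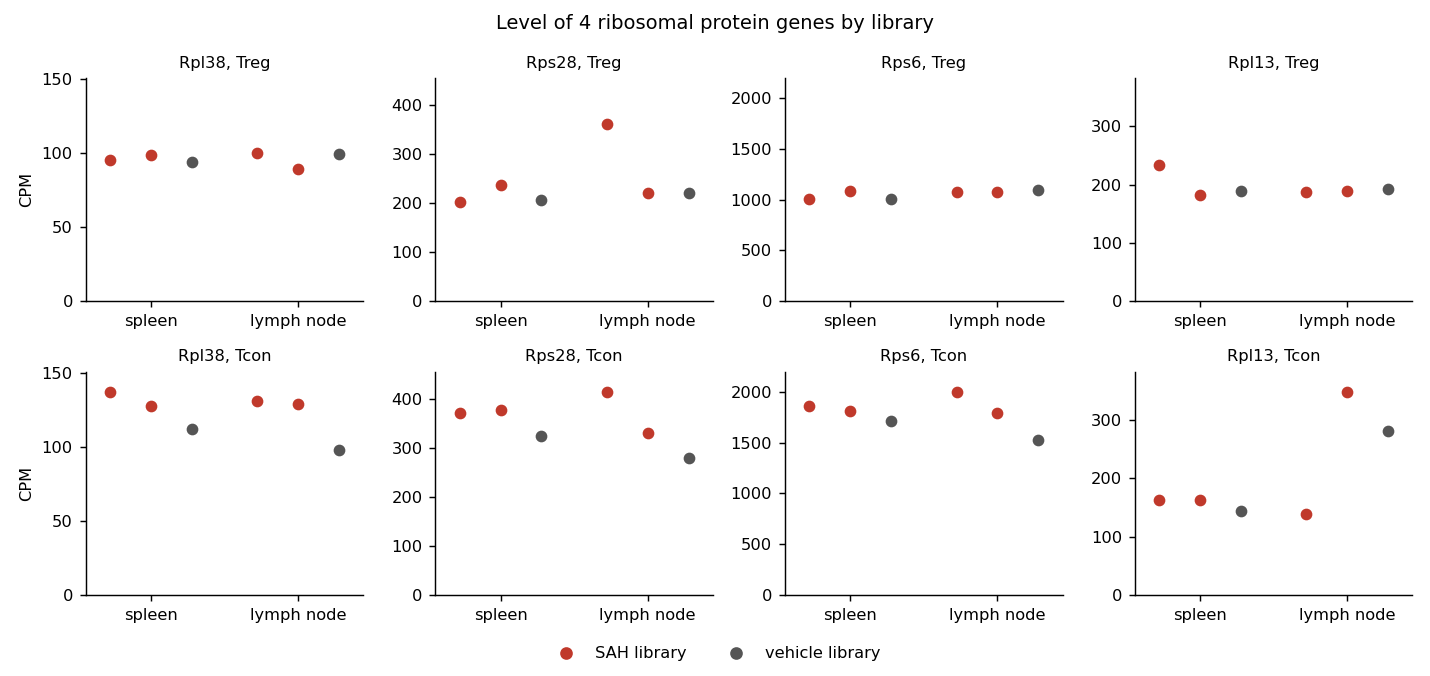
CPM of Rpl38, Rps28, Rps6 and Rpl13 in each library of Treg (top) and Tcon (bottom), with SAH libraries in red to the left of the vehicle library in grey within each organ, and axes starting at 0. In Tcon the SAH points of Rpl38, Rps28 and Rps6 are above both vehicle points, Rps28 has 1 high SAH library in lymph node Treg, and Rpl13 varies most in Tcon lymph node.

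Genes that share the ribosome or its control were read from lists. Of the other subunit genes listed, Rpsa, Fau and Rack1 had changes with SAH of 0.013, -0.041 and -0.00035 in Treg and of 0.13, 0.21 and 0.14 in Tcon. By limma none of these passed in any comparison. Of 23 listed translation factors and other TOP mRNAs, 0 passed the SAH test in Treg (0.202% of all genes) or in Tcon (1.04%). In Treg 9 were positive, against 51.8% of all genes, with a median of -0.017, and in Tcon 21 were positive, against 48.9%, with a median of 0.053. Between organs in Treg, Eef1g, an elongation factor subunit, fell by 0.20 on the log2 scale in spleen (adjusted p 0.0100 by limma), and none of the rest passed, so 1 of 23 was called, against 14.7% of all genes. It stood at 427, 448 and 442 CPM in spleen, against 496, 499.8 and 518 CPM in lymph node.

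In the list of genes that control mTORC1 and TOP mRNAs, 0 of 27 measured in Treg were called with SAH, against 0.202% of all genes. In Tcon 2 of 26 measured were called higher, against 0.88% of all genes, and 0 lower, against 0.162%. Atf4, the transcription factor of the integrated stress response, stood in Tcon at 388 and 406 CPM in spleen SAH, against 317 CPM in spleen vehicle, and at 349 and 382 CPM in lymph node SAH, against 286 CPM in lymph node vehicle, and its change was 0.34 with an adjusted p of 0.0231 by limma. Sesn2, an mTORC1 inhibitor that ATF4 induces, stood in Tcon at 16.3 and 20.6 CPM in spleen SAH, against 13.4 CPM in spleen vehicle, and at 22.6 and 22.7 CPM in lymph node SAH, against 15.4 CPM in lymph node vehicle, a change of 0.47 with an adjusted p of 0.0469. All 4 SAH libraries were above both vehicle libraries for both genes. The call of Sesn2 is close to the threshold, and alternative fits of these 2 genes are not given here. Ddit4, another mTORC1 inhibitor, had a change of 0.62 in Tcon and did not pass (adjusted p 0.0522). Of 27 measured in Treg, 4 were higher in spleen (Larp1b, Sesn1, Eif2ak3 and Atf4), against 8.71% of all genes, and 2 were lower (Ddit4 and Sesn3), against 6.01%. The 11 noncoding host genes of TOP transcripts on the lists were not analysed here.

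Members with and without the shared transcript features had similar median changes with SAH. In Tcon the 33 genes with a pyrimidine run at the start, such as the Rpl38 window shown above, had a median change of 0.16, and the 22 with a window but no run had 0.17. Members under 700 bases had a median of 0.17 and longer ones 0.16. Other genes with a spliced length under 1000 bases had a median of -0.011 in Tcon, with 46.2% of 613 positive.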

How the data were processed

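RNA was sequenced from 12 libraries of Treg and Tcon (poly-A selected, stranded kit per the labels' protocols). TopHat, Bowtie and edgeR are named, with build mm10, per the submitters' processing notes, which give no roles, versions, counting program or filters. The deposited values are a signal scaled per library, named CPM per the file headers, in 1 table per cell type. The same tables hold the authors' log2 fold changes, their likelihood-ratio score and call, and their p-values with false discovery rates.

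Members and gene lists were chosen with earlier results of these data known. Genes named in the text are members past the threshold, the 3 highest and lowest per comparison and per level, paralog pairs and genes of known roles; a few that this rule names are not reported here. A filter of at least 1 CPM in at least 2 libraries removed no listed symbol. log2(CPM + 1) values were fitted with limma 3.58.1 in R 4.3.3 (intensity trend, organ and treatment terms, 3 residual degrees of freedom per table), and p-values were adjusted by Benjamini-Hochberg over all genes, with a threshold of 0.05. The test was checked on simulated data with noise drawn independently for each gene, so shifts shared by a block of genes were not part of that check. All fold changes are on this scale, which slightly understates changes of low genes. Library numbers were taken to pair Treg and Tcon libraries: deviations of same-numbered libraries from their group means correlated over 9784 genes at 0.44 in lymph node and 0.56 in spleen, and over the 74 members at 0.20 and 0.19. Only 2 groups of 2 libraries bear on this, and the labels do not state the pairing. Positions are from GENCODE vM21 and start windows from RefSeq, both on GRCm38. Alternatives were another pseudocount (0.1), a mean of at least 10 CPM, rescaling to 1000000 in all or over other genes, 1 symbol per identical row, each library left out, and the replicate block.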

Additional observations from a re-analysis of the deposited data

Results flagged for a closer look

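Among the 4 SAH libraries of each cell type, 46 sets of values of 23 named members were examined for a library far from the others, and 4 were found, where chance gives about 1 in 20. In Treg, Rpl13 was highest at 234 CPM and Rpl18 and Rps29 were lowest at 371 CPM and 608 CPM, all in spleen SAH replicate 5, the library in which 55 of 74 members had their lowest value. In Tcon, Rpl13 was highest at 347 CPM in lymph node SAH replicate 3.

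The SAH change of Rpl38 differed between Treg and Tcon by -0.33 on the log2 scale with the library number as a replicate block (adjusted p 0.0331 by limma, against 0.642 without the block), with a change of -0.012 in Treg, whose 95% interval of -0.14 to 0.11 includes 0, and of 0.32 in Tcon.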

How the results depend on the processing

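Another pseudocount and counting identical symbols once changed no count by over 1.5 times, and the replicate block was run for the difference between cell types alone, where it called 76 genes and 1 member (0 and 0 without it). With a mean of at least 10 CPM, 259 genes were called between organs in Tcon. Rescaling all libraries, in total or over other genes, left 0 members called with SAH in Tcon (68 genes in all under the second) and 15 called lower in spleen Treg, and turned small uncalled changes: Rpl39 to -0.022 and -0.014 and Rpl7l1 to -0.034 and -0.026 with SAH in Tcon, Rpl19 to -0.026 and -0.031 and Rps2 to -0.022 and -0.027 between organs in Treg, and Rps2 to 0.019 and 0.010 between cell types. Leaving out each library in turn gave 7 to 95 genes called with SAH in Treg, 11 to 226 in Tcon (0 to 2 members higher), 768 to 1830 between organs in Treg (0 to 1 members higher, 1 to 24 lower), 215 to 628 in Tcon (0 to 9 higher, 0 to 1 lower) and 0 to 7 between cell types. Changes that turned sign were all uncalled in the full fit: with SAH, Rps9 in Treg (-0.26 to 0.046), and Rpl13 (-0.35 to 0.23), Rpl39 (-0.043 to 0.078) and Rpl7l1 (-0.067 to 0.087) in Tcon; between organs, Rpl13 (-0.037 to 0.17), Rpl19 (-0.038 to 0.032) and Rps2 (-0.072 to 0.060) in Treg and Rpl37a (-0.0091 to 0.37) in Tcon; between cell types, Rpl13 (-0.18 to 0.40), Rpl22l1 (-0.12 to 0.13) and Rps2 (-0.071 to 0.061). The cause was not tested. The 2 planned count tests were not run, since too few low values were listed to accept the steps as whole reads. With 1 vehicle library per organ, a lone vehicle library sets each organ's reference, and a lone library is assumed to vary like the others.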
